A study of Mus musculus with 2 samples.

Results

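*Notum*-*Sfrp5* chondrocytes are cells of the mouse femur that carried RNA of the cartilage collagen gene *Col2a1* together with at least 2 of the 4 genes *Notum*, *Sfrp5*, *Calml3* and *Chil1*. They were chosen by the expression of these genes: a barcode had 200 or more detected genes, *Col2a1* at 0.1% or more of its UMIs (unique molecular identifiers, which count RNA molecules) and at least 2 UMIs in each of 2 or more of the 4 genes. Barcodes with *Prg4* at 0.5% or more, *Col10a1* at 0.1% or more, 2 or more UMIs of *Epyc*, or 4 haemoglobin genes at 10% or more of the UMIs were left out. The rule kept 155 of the 10638 barcodes of the series, and 1425 barcodes passed the limits on detected genes, haemoglobin and *Col2a1* alone (*Col2a1* barcodes in the following). The levels of the genes in the rule are therefore a description of how the cells were chosen and not a result.

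*Notum* encodes a secreted enzyme that removes the lipid from Wnt proteins and so inactivates them, and *Sfrp5* encodes a secreted protein that binds Wnt ligands. Chondrocytes of the growth plate pass from a resting reserve through columns of dividing cells to hypertrophic cells that make *Col10a1*. Secreted Wnt inhibitors are a known feature of the resting zone, and lubricin, the product of *Prg4*, marks the joint surface. *Lef1* encodes a transcription factor that acts on Wnt target genes, *Calml3* a calmodulin-like protein and *Chil1* a secreted chitinase-like glycoprotein. In the mouse genome (GRCm38, GENCODE annotation) *Notum* lies at chr11:120653788-120661175 and *Sfrp5* at chr19:42197971-42202252, both on the minus strand.

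Single-cell RNA sequencing was performed with the Chromium 3′ chemistry on femoral cells of male C57BL/6J mice that were 7 weeks old. The control group was untreated, and the other group was injected intravenously with calcitriol (1,25-dihydroxyvitamin D3, the hormone form of vitamin D) at 2.5 µg/kg on each of 3 days and examined 24 h after the last injection. Femurs of 6 mice per group were pooled, and cells were released from shafts freed of epiphyses and marrow. CD45-positive cells were depleted before capture. Each group was thus 1 library, so that no difference between the groups has a replicate check, and the intervals below (95%, exact) cover counting error only.

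In the untreated library 42 of 487 *Col2a1* barcodes were *Notum*-*Sfrp5* chondrocytes, which is 8.62% (6.29% to 11.5%). In the calcitriol library the number was 113 of 938, which is 12.05% (10.03% to 14.3%), so the counting intervals of the shares overlapped. The median depth was 21857 UMIs (10694 to 38469) in the untreated and 21588 UMIs (2912 to 46708) in the calcitriol cells, and 0 and 3 cells had fewer than 5000 UMIs. No barcode of these cells occurred in the other library, although 8 barcodes of the series were found in both. Around the threshold of 2 UMIs, 16 untreated and 30 calcitriol cells had exactly 2 UMIs in the second highest of the 4 genes, and 26 untreated and 40 calcitriol barcodes that met all other limits had 1. The other *Col2a1* barcodes were split into a *Col10a1* set (159 barcodes), a *Prg4* set (474), an *Epyc* set (244) and the remaining barcodes (393). The sets other than the remaining barcodes were named for the gene that defined them. They were not free of the 4 genes of the rule. Of barcodes with 2 or more UMIs of *Epyc*, 36 untreated and 60 calcitriol ones had 2 UMIs in 2 or more of the 4 genes. Past the *Prg4* limit 6 and 46 barcodes did so, and past the *Col10a1* limit 1 and 11.

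The 5 marker genes were measured as the summed UMIs of a gene per 1000000 UMIs of the set (CPM). *Notum* stood at 284 CPM in untreated and 139 CPM in calcitriol *Notum*-*Sfrp5* chondrocytes, against 18.7 to 50.1 CPM in the untreated *Epyc*, remaining and *Prg4* sets. *Sfrp5* stood at 101 CPM without and 147 CPM after calcitriol, and *Calml3* at 173 and 304 CPM. *Chil1* stood at 432 CPM in untreated and 2340.3 CPM in calcitriol cells. *Chil1* was higher in the calcitriol library in each of the other sets as well, by a log2 ratio of 1.23 in the *Epyc* set, 2.39 in the remaining barcodes, 2.02 in the *Prg4* set and 1.87 in the *Col10a1* set. *Chil1* was part of the rule, so its level bore on which cells passed. With 2 of *Notum*, *Sfrp5* and *Calml3* required instead, the shares were 6.78% and 6.93% (this alternative was chosen after seeing the data). *Calml3*, also higher after calcitriol, stayed in that rule. The part of *Chil1* in the difference of the shares was not tested.

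*Lef1*, which the rule did not use, was at 92.4 CPM without and 116 CPM after calcitriol. Its log2 ratio over the *Epyc* set was 1.18 (0.76 to 1.58) in the untreated and 0.83 (0.59 to 1.06) in the calcitriol library, and over the *Prg4* set 5.66 and 4.92. *Lef1* UMIs were found in 81.0% of the untreated and 76.1% of the calcitriol cells, against 0.518% and 1.32% of endothelial barcodes, a cell type that served as background. The median depth of those endothelial barcodes was 8810 and 9756.5 UMIs. *Notum* was found in 90.5% and 69.9% of the cells and *Sfrp5* in 54.8% and 43.4%, and in the endothelial barcodes both were at or below 0.518%. With every cell thinned to 5000 UMIs, which left out 3 calcitriol cells, *Lef1* was found in 40.5% and 39.1%, *Notum* in 69.0% and 33.6% and *Sfrp5* in 35.7% and 24.5% of the cells.

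**Figure D1:**
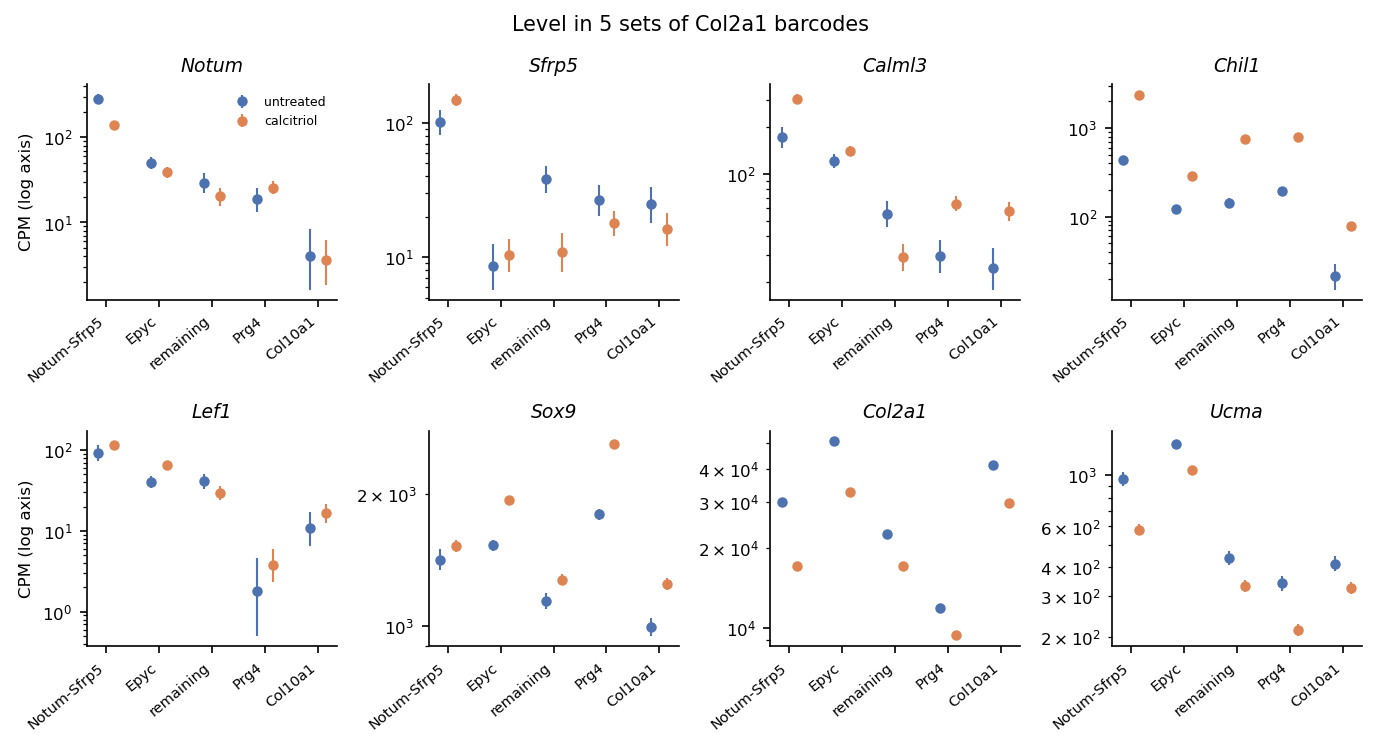
Level (CPM, log axis) of the genes of the rule, *Lef1* and 3 chondrocyte genes in *Notum*-*Sfrp5* chondrocytes and the 4 other sets of *Col2a1* barcodes. Points are CPM of the summed UMIs in 1 library per group and bars are exact 95% counting intervals. *Notum* and *Sfrp5* are highest in *Notum*-*Sfrp5* chondrocytes by the rule, and *Lef1*, outside the rule, is at 92.4 and 116 CPM there.

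The name covered cells with different combinations of the 4 genes. At 2 UMIs or more, *Notum* was present in 33 of 42 untreated and 64 of 113 calcitriol cells, and *Sfrp5* in 17 and 40. Both genes were present in 10 untreated and 19 calcitriol cells. *Calml3* and *Chil1* alone, with neither *Notum* nor *Sfrp5* at 2 UMIs, made up 2 untreated and 28 calcitriol cells, so the name holds for those cells only in part. In these 28 cells *Notum* was at 12.6 CPM and *Sfrp5* at 3.60 CPM, and *Wif1*, another secreted Wnt inhibitor, was at 1144 CPM.

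Cells with *Notum* but not *Sfrp5* (23 untreated and 45 calcitriol) differed in other genes from cells with *Sfrp5* but not *Notum* (7 and 21). These genes were ranked after the split and are given as values only. *Thbs4*, which encodes a matrix protein of tendon and cartilage, was at 1098 CPM with *Notum* and 140 CPM with *Sfrp5* in the untreated library, and at 1011 and 172 CPM in the calcitriol library. *Col3a1*, a fibrillar collagen gene, was at 823 and 147 CPM in the untreated and 572 and 90.5 CPM in the calcitriol library. In the other direction *Mfge8*, which encodes a milk fat globule protein, was at 1377 CPM with *Notum* and 3735 CPM with *Sfrp5* in the untreated, and at 620 and 1817 CPM in the calcitriol library. *Cryab*, a small heat shock protein gene, was at 846 and 1913 CPM in the untreated and 711 and 2274 CPM in the calcitriol library. The untreated values with *Sfrp5* rest on 7 cells.

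All 14 general chondrocyte genes were detected in *Notum*-*Sfrp5* chondrocytes of both libraries, but *Matn1* by only 1 UMI in the untreated cells (50 UMIs in the calcitriol cells). *Col2a1* was at 29834.5 CPM in the untreated cells against 17205 CPM with calcitriol, and *Sox9*, which encodes the master transcription factor of cartilage, at 1417 and 1525 CPM. Markers of other cell types were low but for those of osteoblasts and erythroid cells. The 4 endothelial markers summed to 5.57 CPM in untreated and 13.6 CPM in calcitriol cells, the 5 immune markers to 6.68 and 1.60 CPM, and the 3 osteocyte markers to 1.11 and 8.40 CPM. In each of these 3 lists at least 1 marker was at 0 in the untreated cells. The 5 osteoblast markers summed to 4345 CPM without and 11185 CPM after calcitriol, none at 0, with *Ibsp* (bone sialoprotein) the most abundant. In the other *Col2a1* barcodes the same sum was 13701 and 12655 CPM.

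The 5 erythroid markers summed to 1119 CPM in untreated and 212 CPM in calcitriol cells, with *Hbb-bs* the most abundant at 629 and 128 CPM. In the other *Col2a1* barcodes their sums were 1927.5 and 511 CPM, so this RNA was lower in the calcitriol library outside *Notum*-*Sfrp5* chondrocytes as well. The 5 tendon markers summed to 73.5 and 130.04 CPM, the 4 fibroblast markers to 62.3 and 100.03 CPM, and the 4 smooth muscle markers to 117 and 26.0 CPM with *Tagln* the most abundant. Schwann cell and adipocyte markers stayed under 4 CPM in both libraries. The part of these cell types in the differences below was not tested.

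Against the *Epyc* set, 5.09% of 5403 compared genes (275) were 2-fold or more higher in *Notum*-*Sfrp5* chondrocytes in both libraries and 1.65% (89) were lower. Compared genes had 50 or more UMIs in these cells over both libraries and a UMI in 10% or more of the cells of a library. Of the 7 compared Wnt antagonist genes, 5 were higher and none lower. *Notum* and *Sfrp5*, on which the cells were selected, are among these 5, and the other 3 are *Wif1*, *Frzb* and *Dkk3*. *Wif1*, which was not in the rule, was at 1860 CPM without and 1364 CPM after calcitriol, against 87.6 and 125 CPM in the *Epyc* set. *Frzb*, a secreted Wnt antagonist of cartilage, was at 183 and 361 CPM against 7.38 and 60.4 CPM. Both were near their level in the remaining barcodes, where *Wif1* was at 1700.3 and 1577 CPM and *Frzb* at 248 and 399 CPM.

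Of 10 compared resting zone genes 7 were higher than in the *Epyc* set in both libraries, beside 5.09% of all genes. *Notum* and *Sfrp5*, which the rule used, are 2 of these 7. Against the remaining barcodes 4 of the 10 were higher and 2 lower, beside 1.3% and 0.574% of all genes, and against the *Prg4* set 4 were higher and 3 lower, beside 4.52% and 1.96%. *Notum* and *Sfrp5* are again 2 of the 4 in both counts, and the others are *Spon1* and *Apoe* against the remaining barcodes and *Spon1* and *Ucma* against the *Prg4* set. *Spon1*, which encodes the matrix protein F-spondin, was at 229 and 164 CPM against 11.99 and 24.3 CPM in the *Epyc* set. *Clu* (clusterin) was at 1116 and 2529 CPM against 131 and 466 CPM in the *Epyc* set. It was also the most abundant gene of the list in the other *Col2a1* barcodes of both libraries. *Apoe*, which encodes apolipoprotein E, was at 2464 and 1533 CPM against 309 and 444 CPM in the *Epyc* set. Outside the lists, *Dio2*, which encodes the enzyme that activates thyroid hormone, was at 31.2 and 100.4 CPM against 2.15 and 5.82 CPM in the *Epyc* set.

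Of the other genes with high ratios over the *Epyc* set, *Ibsp*, a marker of osteoblasts and hypertrophic chondrocytes, was at 2502 and 9239 CPM against 175 and 1127 CPM, and *Thbs4* at 779 and 677 CPM against 34.7 and 58.0 CPM. *Dapl1*, which encodes a death-associated protein-like factor, was at 11.1 and 25.2 CPM against 0.307 and 1.81 CPM, where the lower values are 1 and 9 UMIs. *Cacna1e*, a calcium channel gene, was at 10.02 and 32.8 CPM against 0.307 and 3.21 CPM, *Atp6v0a4*, a proton pump subunit gene, at 31.2 and 76.8 CPM against 1.84 and 8.63 CPM, and *Pltp*, which encodes the phospholipid transfer protein, at 95.7 and 155 CPM against 11.99 and 17.1 CPM. *Gm525* was at 20.04 and 109 CPM against 1.23 and 6.82 CPM, with 64.7% of its calcitriol UMIs in 1 cell. *Atp6v0a4* was found in 12 untreated and 51 calcitriol cells.

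Fewer genes were lower than in the *Epyc* set. Of 27 columnar matrix genes 9 were lower in both libraries and 1 was higher, beside 1.65% and 5.09% of all genes. The general chondrocyte list had a median log2 ratio of -1.01 in the untreated and -1.52 in the calcitriol library. *Matn3* (matrilin-3) was at 901 and 443 CPM against 2811 and 1638 CPM. *Ppa1*, which encodes a pyrophosphatase, was at 132 and 187 CPM against 5147 and 3542 CPM, and had the lowest ratio of all. *Wnt4* was at 36.7 and 25.6 CPM against 178 and 138 CPM. *Fxyd2*, which encodes a sodium pump regulator, was at 171 and 92.03 CPM against 2216 and 1360.1 CPM, and *H1f0*, a linker histone gene, at 27.8 and 36.8 CPM against 397 and 286 CPM. These levels lay well apart in both libraries. *Tgfbi*, a matrix protein gene, was at 28.9 and 42.8 CPM against 255 and 199 CPM, and *Slc13a5*, a citrate carrier gene, at 43.4 and 31.2 CPM against 214 and 124 CPM. *Tspan18* and *Colgalt2* were also among the 10 lowest, with log2 ratios of -2.11 and -2.05 at the least in a library. *Mmp13* (collagenase) was at 18.9 and 19.2 CPM against 102 and 126 CPM, but its log2 ratio turned to 0.43 and 1.45 without the barcodes marked as doublets. *Hmgb2*, a chromatin gene of dividing cells, was at 45.6 and 57.2 CPM against 366 and 247 CPM, and the proliferation gene *Mki67* was at 5.57 and 1.20 CPM against 70.4 and 31.7 CPM.

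The remaining *Col2a1* barcodes were nearest to *Notum*-*Sfrp5* chondrocytes, with 1.3% of the genes (70) 2-fold or more higher in *Notum*-*Sfrp5* chondrocytes in both libraries and 0.574% (31) lower. *Pappa2*, which encodes a protease that frees insulin-like growth factors, was at 98.0 and 23.2 CPM against 8.50 and 2.08 CPM. *Pcp4*, which encodes a calmodulin-binding protein, was at 42.3 and 60.0 CPM against 5.50 and 4.76 CPM. *Pax1*, a transcription factor gene of the developing skeleton, was at 42.3 and 29.6 CPM against 6.00 and 6.84 CPM. *Epcam*, which encodes a cell adhesion molecule known from epithelia, was at 102 and 58.8 CPM against 19.0 and 7.43 CPM, with 53.3% of its untreated UMIs in 1 cell.

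Of the other genes higher than in the remaining barcodes, *Efemp1*, which encodes fibulin-3, was at 139 and 127 CPM against 31.99 and 29.1 CPM. *Loxl1*, an oxidase gene of elastic fibres, was at 73.5 and 44.01 CPM against 15.99 and 6.84 CPM. *Ly6a*, a surface marker of fibroblast-like cells, was at 42.3 and 48.8 CPM against 9.996 and 7.73 CPM, with 68.4% of its untreated UMIs in 1 cell, and by the mean of the cells' own CPM its log2 ratio turned to -1.47 and -0.71.

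Among the genes lower than in the remaining barcodes, *Mmp13* was at 18.9 and 19.2 CPM against 822 and 262 CPM, and its log2 ratio turned to 0.34 in the calcitriol library with *Col2a1* at 1% or more. *Spp1* (osteopontin) was at 2168 and 4504 CPM against 16565 and 27861 CPM, and *Col1a1*, the bone collagen gene, at 1376 and 971 CPM against 16846 and 4557 CPM. *Lox* was at 46.8 and 213 CPM against 353 and 565 CPM, *Adamts2*, a procollagen-processing protease gene, at 18.9 and 26.4 CPM against 87.97 and 68.98 CPM, and *Ptgis*, which encodes prostacyclin synthase, at 122 and 162 CPM against 480.3 and 431 CPM. *Bmp8a*, a bone morphogenetic protein gene, was at 11.1 and 17.6 CPM against 43.5 and 61.2 CPM. *Bglap2*, *Msmp* and *Col8a1* were the other 3 of the 10 lowest, each with 46.4% or more of its calcitriol UMIs in 1 cell.

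Against the *Prg4* set, 4.52% of the genes (244) were 2-fold or more higher in both libraries and 1.96% (106) were lower. Of 14 compared articular surface genes 8 were lower and 1 higher, and *Prg4*, whose level set both groups of cells apart by the rule, is among the 8. *Matn3* was at 901 and 443 CPM against 6.84 and 7.49 CPM in that set. *Pcp4* was at 0.456 and 0.384 CPM there, and *Pthlh*, which encodes the parathyroid hormone-related protein that holds back hypertrophy, was at 14.1 and 33.8 CPM there and at 6.68 and 13.2 CPM (6 and 33 UMIs) in *Notum*-*Sfrp5* chondrocytes.

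**Figure D2:**
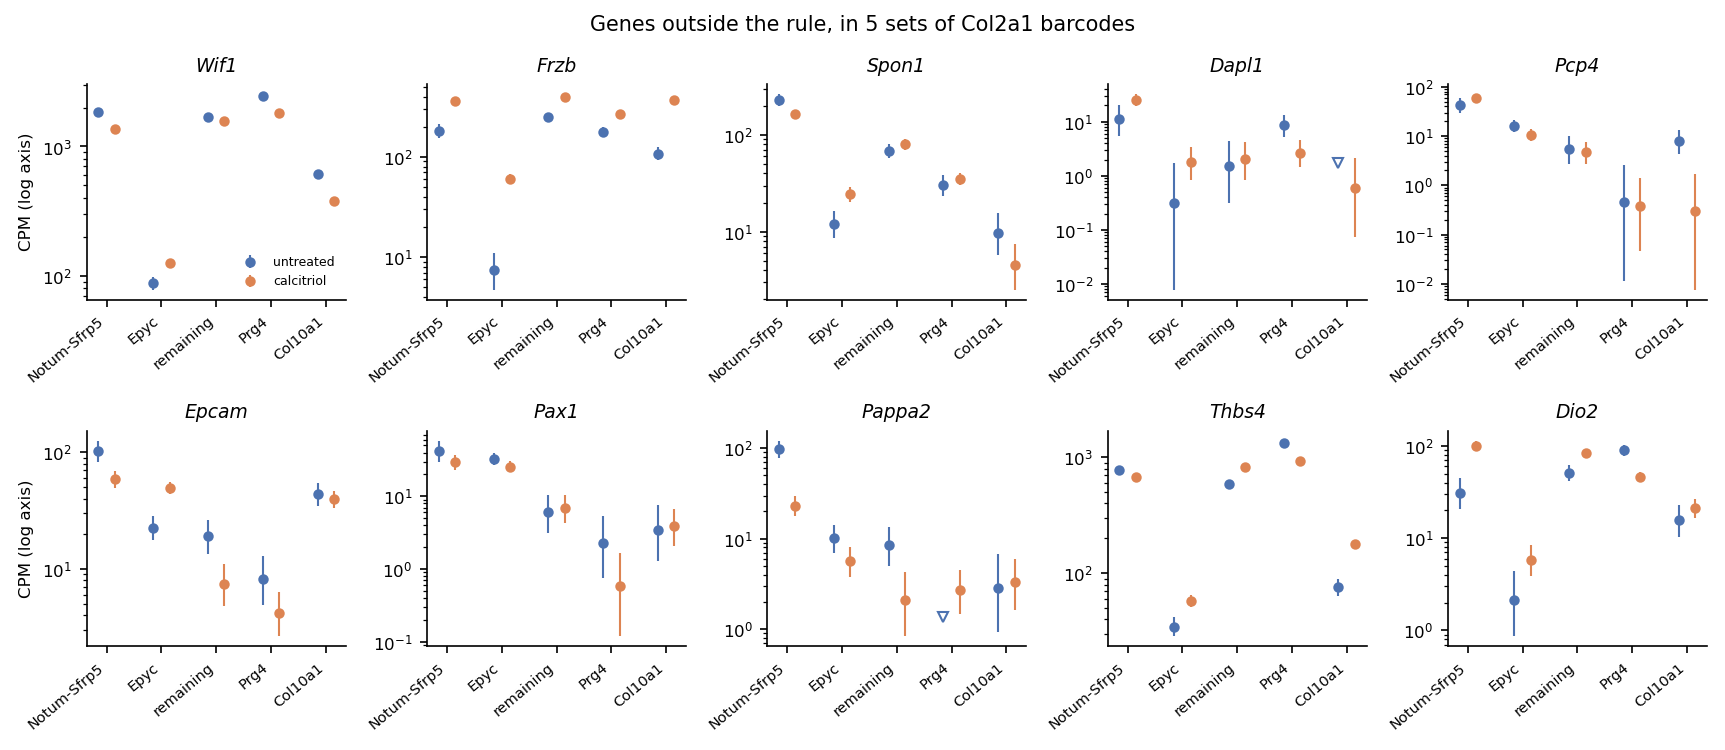
Level (CPM, log axis) of 10 genes that the rule did not use, in *Notum*-*Sfrp5* chondrocytes and the 4 other sets, with exact 95% counting intervals and 1 library per group. Open triangles mark the limit of 3 counts where no UMI was found. *Spon1*, *Pappa2* and *Pcp4* are highest in *Notum*-*Sfrp5* chondrocytes in both libraries, while *Wif1* and *Thbs4* are of like level in the remaining and *Prg4* barcodes.

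Calcitriol and untreated *Notum*-*Sfrp5* chondrocytes were compared over the same 5403 genes. In the calcitriol cells 3.94% of the genes (213) were 2-fold or more higher and 5.05% (273) were 2-fold or more lower, and the median log2 ratio of all genes was -0.17. These shares are the background of each count of higher or lower list members below, and genes that are low in the untreated cells could meet the filter through the calcitriol cells alone. With cells thinned to 5000 UMIs each, 87 and 114 of 1788 genes passed. Without the 2 untreated and 28 calcitriol cells that had *Calml3* and *Chil1* alone, 167 genes were higher and 246 lower of 4792, and 140 and 206 of these were among the 213 and 273 (an alternative chosen after seeing the data). Of the 10 genes with the highest ratios 7 had 1 UMI in the untreated cells, so that the size of these ratios is poorly fixed.

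**Figure D3:**
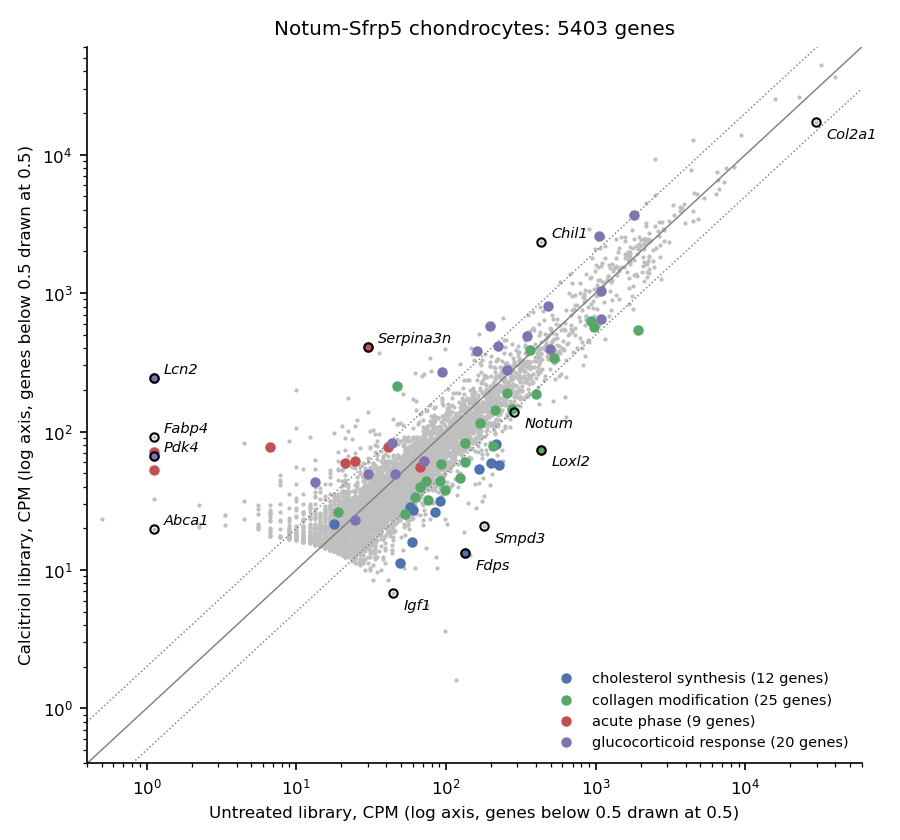
Each point is 1 of 5403 genes, at its CPM in untreated (horizontal, log axis) and calcitriol (vertical, log axis) *Notum*-*Sfrp5* chondrocytes. The solid line marks equal levels and the dotted lines 2-fold. Of the 12 coloured cholesterol synthesis genes 11 lie below the lower dotted line.

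Genes of cholesterol synthesis were lower together in the calcitriol cells. Of 20 genes of the pathway 12 were compared, and 11 of them were 2-fold or more lower in the calcitriol cells, beside 5.05% of all genes. Their median log2 ratio was -1.67, against -0.17 for all genes. This list was added after the ranking had been seen. *Fdps*, which encodes farnesyl diphosphate synthase, was at 135 CPM in untreated and 13.2 CPM in calcitriol cells, a log2 ratio of -3.35 (-3.95 to -2.79). Thinned to 5000 UMIs, 35.7% of the untreated and 2.73% of the calcitriol cells had a *Fdps* UMI (25 of 42 and 16 of 113 cells before thinning).

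*Hmgcs1*, which encodes a synthase of the early steps, was at 167 CPM without and 54.0 CPM after calcitriol (-1.63, -1.97 to -1.28). *Idi1*, an isomerase gene of the isoprenoid steps, was at 226 and 56.8 CPM (-1.99), and *Sqle*, which encodes squalene epoxidase, at 91.3 and 31.2 CPM (-1.55). The later sterol steps followed the same direction, with *Cyp51* at 215 and 81.2 CPM, *Msmo1* at 199 and 59.2 CPM and *Sc5d* at 49.0 and 11.2 CPM. *Ggps1*, which makes the precursor of protein prenylation, was the exception at 17.8 and 21.6 CPM.

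These ratios were not carried by 1 cell. The highest cell held 22.4% or less of the UMIs of each of the 12 genes in either library, and with that cell left out for each gene 10 genes stayed 2-fold or more lower. With only the members that had 2 or more UMIs of *Notum* (33 untreated and 64 calcitriol), the median was -1.75 and 11 genes were lower, and without *Chil1* in the rule the median was -1.45 and 9 genes were lower. In cells with *Sfrp5* but not *Notum*, *Fdps* was at 27.9 CPM without and 19.4 CPM after calcitriol (4 and 9 UMIs in 7 and 21 cells). With *Notum* but not *Sfrp5* it was at 165 and 20.0 CPM, and with both genes at 116 and 0 CPM.

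The other sets of *Col2a1* barcodes, which come from the same libraries, had the same direction at a smaller size. The median log2 ratio of the 12 genes was -0.45 in the *Epyc* set, -0.55 in the remaining barcodes, -0.99 in the *Prg4* set and -0.42 in the *Col10a1* set. *Idi1* was at -0.23 (-0.40 to -0.07) in the *Epyc* set and -0.79 (-0.98 to -0.60) in the *Prg4* set, and its counting interval in *Notum*-*Sfrp5* chondrocytes (-2.31 to -1.68) did not reach these. The difference between the sets has no replicate check, and the 12 genes were chosen for the ratio in *Notum*-*Sfrp5* chondrocytes.

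**Figure D4:**
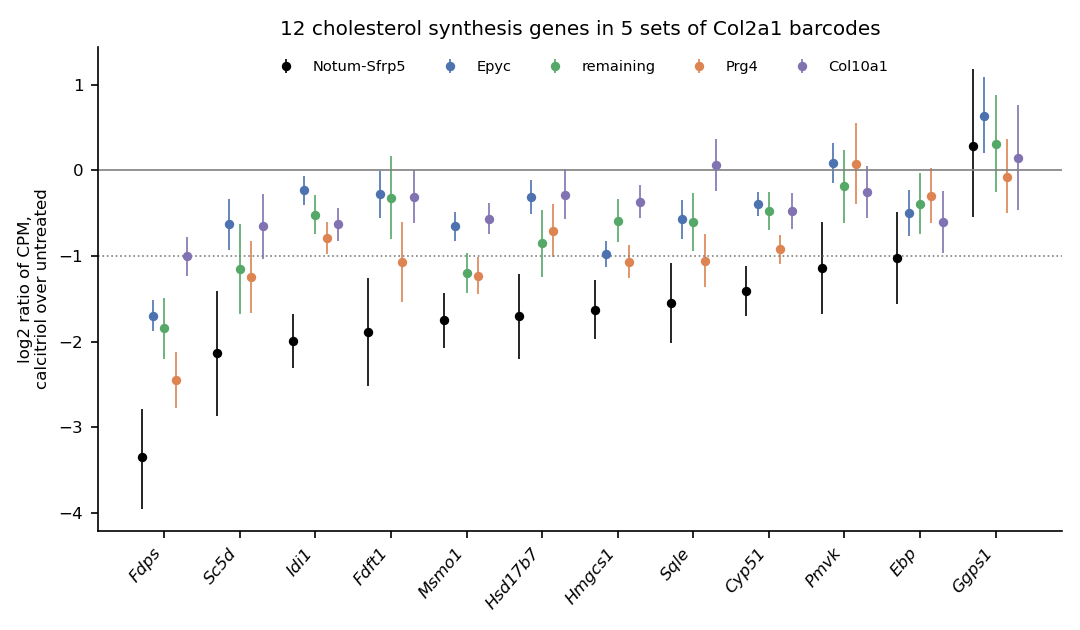
Log2 ratio of CPM, calcitriol over untreated, of 12 cholesterol synthesis genes in 5 sets of *Col2a1* barcodes, with exact 95% counting intervals and 1 library per group. The dotted line marks 2-fold lower. *Notum*-*Sfrp5* chondrocytes (black) have the lowest ratio for 11 of the 12 genes, from -1.03 for *Ebp* to -3.35 for *Fdps*.

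Genes of this pathway are known targets of sterol-responsive transcription factors, which bind sterol response elements in promoters. The letters TCACNCCAC, searched on both strands in the 250 bases before the start of transcription (RefSeq, GRCm38.p6), were found in 1 of 16 cholesterol synthesis genes with a sequence and in 1.22% of 27025 genes. That gene was *Hmgcs1*, and the stretch is shown because the gene was among the 11 lower ones (chr13:119690189-119690247, plus strand, 59 bases, the match in capitals).
Hmgcs1: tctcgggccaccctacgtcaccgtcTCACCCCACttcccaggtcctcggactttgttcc
The match begins 137 bases before the start, and it describes the sequence only. In the lists of the next paragraphs, the letters were found in 0 of 12 sterol uptake and control genes. They were found in 1 of 15 fatty acid synthesis genes (*Acsl1*), which was within 2-fold between the libraries and thus not among the lower genes.

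Genes of sterol uptake and its control, also listed after seeing the values, had 2 lower and 2 higher of 12 and a median of -0.54. *Insig1*, which encodes a sterol sensor of the endoplasmic reticulum, was at 236 CPM in untreated and 74.0 CPM in calcitriol cells (-1.67, -1.97 to -1.38). Of the higher genes, *Abca1*, the exporter of cholesterol, had 1 UMI in the untreated and 49 UMIs in 30 calcitriol cells (4.14, 1.59 to 9.47), so that it met the filter only through the latter, and *Mylip*, which encodes a sterol-induced ubiquitin ligase, was at 10.0 and 31.6 CPM (1.66, 0.66 to 2.84). In the other *Col2a1* barcodes *Abca1* was at 0.59 and *Mylip* at 0.42 on the log2 scale.

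Of 13 compared fatty acid synthesis genes 4 were lower and 1 was higher, with a median of -0.79. The desaturase genes *Scd1* and *Scd2* were at 101 and 73.5 CPM in the untreated and 21.6 and 14.4 CPM in the calcitriol cells. *Fads2*, another desaturase gene, was at 41.2 and 8.40 CPM. *Me1*, which encodes malic enzyme, was at 91.3 and 38.8 CPM, and *Acsl4*, which activates polyunsaturated fatty acids, was higher at 23.4 and 55.6 CPM. The log2 ratios of these 3 desaturase genes were -2.23, -2.35 and -2.29, and in the other *Col2a1* barcodes they were -1.50 for *Scd1*, -1.72 for *Scd2* and -1.89 for *Fads2*.

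Most genes of the cartilage matrix stood at lower levels in the calcitriol cells, few of them past 2-fold. In the general chondrocyte list 12 of 13 compared genes were below 0 on the log2 scale, beside 3374 of all 5403 genes. *Matn1*, with 1 and 50 UMIs, did not meet the filter. The list had a median of -0.70, and 2 genes passed 2-fold. *Col2a1*, which the rule used, is among the 12. The 2 genes, *Acan* and *Matn3*, came within 2-fold in the cells with 2 or more UMIs of *Notum* or *Sfrp5*. The median was -0.41 with *Col2a1* at 1% or more, and between -0.25 and -0.61 in the 4 other sets. *Acan*, which encodes the main cartilage proteoglycan, was at 2739.8 CPM in the untreated cells against 1266 CPM with calcitriol (-1.11, -1.19 to -1.04), and *Matn3* at 901 and 443 CPM (-1.02). *Comp*, which encodes a matrix protein of cartilage and tendon, was at 8348 and 8196 CPM. In the columnar matrix list 2 genes were lower and 1 higher of 27, near the 5.05% and 3.94% of all genes, with a median of -0.48.

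Of 25 compared collagen modification genes 10 were lower and 1 was higher, beside 5.05% and 3.94% of all genes, with a median of -0.77 (a list added after seeing the values). *Serpinh1*, which encodes the collagen chaperone HSP47, was at 1917 CPM without and 540 CPM after calcitriol (-1.83, -1.93 to -1.72). *Loxl2*, which encodes a collagen cross-linking oxidase, was at 431 and 74.0 CPM (-2.54, -2.80 to -2.28), and *P3h1*, a prolyl hydroxylase gene, at 99.1 and 38.0 CPM (-1.38). *Lox*, the founding member of the oxidase family, was higher at 46.8 and 213 CPM (2.19, 1.73 to 2.68). The median of this list was -0.78 in the *Epyc* set, -0.74 in the remaining barcodes, -0.73 in the *Prg4* set and -0.68 in the *Col10a1* set, so the medians of the 5 sets were alike. *Smpd3*, which encodes a sphingomyelinase needed for mineralized matrix, was at 180 and 20.8 CPM (-3.12, -3.60 to -2.66), and the log2 ratio in the other *Col2a1* barcodes was -1.58.

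Of 7 compared Wnt antagonists 3 were lower and none higher, beside 5.05% and 3.94% of all genes, with a median of -0.45. *Notum* itself had a log2 ratio of -1.03 (-1.27 to -0.79) and was -0.28 in the other *Col2a1* barcodes, but its level helped to choose the cells. *Trabd2b*, which encodes a membrane protease that cleaves Wnt proteins, was at 82.4 CPM in untreated and 30.4 CPM in calcitriol cells (-1.44, -1.92 to -0.96). *Dkk3*, a Dickkopf family gene, was at 44.5 and 17.2 CPM (-1.37, -2.03 to -0.71), with 45.0% of its untreated UMIs in 1 cell, and its direction turned in cells without *Bglap* UMIs.

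*Frzb* was at 183 and 361 CPM (0.98, 0.74 to 1.23), just under the limit. Of 11 compared ligands and receptors *Fzd1*, a frizzled receptor gene, was higher at 15.6 and 42.0 CPM (1.43, 0.62 to 2.35) and none was lower. Of 12 targets and feedback genes 2 were higher and 2 lower, and *Notum*, which the rule used, is among the lower genes. *Ccnd1*, which encodes cyclin D1, was at 266 and 108 CPM (-1.30, -1.55 to -1.04), and *Tcf7l2*, a partner of *Lef1* in the pathway, at 18.9 and 44.4 CPM (1.23, 0.49 to 2.06). *Dact1*, which encodes an intracellular modulator of Wnt signalling, was at 14.5 and 32.4 CPM (1.16), but turned to -0.18 with *Col2a1* at 1% or more. In the cells with 2 or more UMIs of *Notum* or *Sfrp5* the ratios of *Notum*, *Ccnd1* and *Tcf7l2* came within 2-fold. *Axin2*, the widely used target gene, had 2 UMIs in the untreated and 14 UMIs in the calcitriol cells, too few to be compared.

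Of 11 compared genes of the PTHrP and hedgehog list 2 were higher and 1 lower, with a median of 0.34. *Gas1*, which encodes a hedgehog co-receptor, was at 22.3 CPM without and 100.4 CPM after calcitriol (2.17, 1.52 to 2.91), and *Boc*, another co-receptor gene, at 26.7 and 56.4 CPM (1.08). *Hhip*, the decoy receptor of the pathway, was at 106 and 39.6 CPM (-1.42, -1.84 to -0.995). The receptor gene *Ptch1* was at 72.4 and 86.8 CPM, and *Pth1r*, the receptor of parathyroid hormone-related protein, at 129 and 163 CPM, within 2-fold. In the resting zone list 3 genes were higher (*Clu*, *Gas1* and *Cd200*) and *Notum* was lower, of 10, with a median of -0.20. *Clu* was at 1358 and 1792 CPM with *Notum* but not *Sfrp5*, 496 and 2783 CPM with *Sfrp5* but not *Notum*, and 1122 and 5103 CPM with both. In the same order *Gas1* was at 15.0 and 87.7 CPM, 69.8 and 263 CPM, and 11.1 and 4.64 CPM. The last values rest on 2 UMIs in each library.

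Growth factor genes differed in single members. Of 10 compared genes of the insulin-like growth factor list 3 were higher and 2 lower. *Igf1* was at 44.5 CPM in untreated and 6.80 CPM in calcitriol cells (-2.71, -3.62 to -1.86), with 45.0% of its untreated UMIs in 1 cell, and *Pappa2* at 98.0 and 23.2 CPM (-2.08, -2.58 to -1.58). *Stc2*, which encodes an inhibitor of the related protease, was at 23.4 and 88.8 CPM (1.93), and the binding protein gene *Igfbp6* at 99.1 and 393 CPM (1.99). *Igfbp5* was at 8.91 and 85.6 CPM (3.27), in 14 of the calcitriol cells, and its direction turned when only cells with *Notum* were taken.

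Of 27 compared BMP and TGF-beta genes 4 were higher and 1 was lower, beside 3.94% and 5.05% of all genes, with a median of 0.08. *Fst*, which encodes the activin antagonist follistatin, was at 7.79 and 44.4 CPM (2.51), and *Id3*, a target of bone morphogenetic proteins, at 62.3 and 265 CPM (2.09). *Tgfb3* was at 22.3 and 58.4 CPM (1.39), *Tgfbr3* at 63.5 and 143 CPM (1.17) and *Gdf10* at 28.9 and 10.0 CPM (-1.53). In the FGF and Notch list *Fgfrl1*, a receptor-like gene without a kinase, was lower at 187 and 68.4 CPM (-1.45) and no gene was higher, of 12.

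Genes of vitamin D action included 3 that were 2-fold or more higher. *Vdr*, the vitamin D receptor, had 7 UMIs in the untreated and 11 UMIs in the calcitriol cells and was not compared. Of 17 compared vitamin D genes 3 were higher and none lower, beside 3.94% of all genes, with a median of 0.05. *Txnip*, which encodes a thioredoxin inhibitor, was at 22.3 CPM without and 174 CPM after calcitriol (2.97, 2.32 to 3.69), and *Spp1* at 2168 and 4504 CPM (1.05). *Bglap* (osteocalcin) was at 35.6 and 367 CPM (3.36, 2.86 to 3.92), but 68.4% of its calcitriol UMIs lay in 1 cell. Of its 917 calcitriol UMIs, 742 lay in the 28 cells with *Calml3* and *Chil1* alone (1335 CPM), against 157 CPM in cells with *Notum* but not *Sfrp5*, 17.2 CPM with *Sfrp5* but not *Notum* and 4.64 CPM with both. In the cells with 2 or more UMIs of *Notum* or *Sfrp5* the log2 ratio was 1.27 for *Bglap* and 0.51 for *Spp1*, and in those with both genes *Bglap* had 1 UMI in the untreated and 2 UMIs in the calcitriol library. Of 8 compared genes that the study names for calcitriol, *Sulf2*, a heparan sulfatase gene, was lower at 31.2 and 10.4 CPM (-1.58) and none was higher.

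Acute phase genes were among those with the highest ratios. Of 9 compared acute phase genes 7 were higher and none lower, beside 3.94% and 5.05% of all genes, with a median of 3.52 (a list added after seeing the values). The other 13 genes of the list were too low to be compared, and *Lcn2*, *Hp* and *Fgl2* met the filter only through the calcitriol cells, so the filter helped to set this count. The median was 1.38 with no limit on *Epyc*, 1.81 with *Col2a1* at 1% or more and 2.03 with thinned cells. *Lcn2*, which encodes the iron-carrying lipocalin, had 1 UMI in the untreated and 607 UMIs in 28 of the calcitriol cells, a log2 ratio of 7.77 (5.29 to 13.08), with 52.2% of these UMIs in 1 cell. The 28 calcitriol cells with *Calml3* and *Chil1* alone held 398 of the 607 UMIs (716 CPM), against 164 CPM with *Notum* but not *Sfrp5*, 30.2 CPM with *Sfrp5* but not *Notum* and 53.4 CPM with both. In the cells with 2 or more UMIs of *Notum* or *Sfrp5* its log2 ratio was 6.53, and the median of the list was 3.62 with 6 genes higher. *Serpina3n*, a protease inhibitor gene, was at 30.1 and 410 CPM (3.77, 3.22 to 4.38). *Hp* (haptoglobin) had 1 and 177 UMIs, 69.5% of them in 1 cell. These genes were higher in the other *Col2a1* barcodes too, with log2 ratios of 2.46 for *Lcn2*, 1.71 for *Serpina3n* and 3.42 for *Hp*.

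*Pdk4*, which encodes the kinase that shuts glucose out of oxidation, had 1 UMI in the untreated and 165 UMIs in 32 of the calcitriol cells (5.89, 3.39 to 11.20), and 2.03 was the log2 ratio in the other *Col2a1* barcodes. *Fabp4*, a fatty acid-binding protein gene, had 1 and 229 UMIs (6.36, 3.87 to 11.67), with a log2 ratio of 0.80 in the other *Col2a1* barcodes. *Wfdc2*, a secreted protease inhibitor gene, was at 4.45 and 82.4 CPM (4.21, 2.83 to 6.10), found in 38 of the calcitriol cells. *Fgl2*, which encodes a fibrinogen-like protein, had 1 and 131 UMIs (5.56, 3.05 to 10.87), and *Klhl33*, a kelch-like gene, 1 and 81 UMIs (4.86, 2.34 to 10.18), with log2 ratios of 1.37 and 1.47 in the other *Col2a1* barcodes. *Msmp*, which encodes a secreted microseminoprotein, had 9 and 498 UMIs, 93.6% of the latter in 1 cell.

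Of 20 compared glucocorticoid response genes 8 were higher and none lower, beside 3.94% and 5.05% of all genes, with a median of 0.83. *Lcn2* and *Pdk4* are 2 of the 8 and met the filter only through the calcitriol cells. *Tsc22d3*, which encodes the glucocorticoid-induced leucine zipper, was at 161 CPM in untreated and 381 CPM in calcitriol cells (1.24), and *Zbtb16*, a transcription factor gene, at 13.4 and 42.8 CPM (1.68, 0.82 to 2.68). The metallothionein genes *Mt1* and *Mt2* were at 1809 and 1052 CPM in the untreated and 3676 and 2574 CPM in the calcitriol cells. *Glul*, which encodes glutamine synthetase, was at 94.6 and 267 CPM. The median of the list was 0.62 in the *Epyc* set, 1.03 in the remaining barcodes, 0.96 in the *Prg4* set and 1.14 in the *Col10a1* set, so the median was above 0 in each of the 5 sets, which share the same libraries.

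Genes that respond to tissue dissociation differed in part. Of 32 compared genes of that list 5 were higher and 1 was lower, beside 3.94% and 5.05% of all genes, with a median of 0.37. The lower gene, *Cxcl1*, and *Zfp36* among the 5 turned in direction when 3 of the 4 genes of the rule were required. *Fos*, an immediate early gene, was at 903 and 2916 CPM (1.69) and *Jun*, its partner, at 669 and 1374 CPM (1.04). In the cells with 2 or more UMIs of *Notum* or *Sfrp5* the ratios of *Jun* and *Zfp36* came within 2-fold. Of 14 heat shock genes 3 were higher, namely *Hspa1a* at 167 and 507 CPM (1.60), *Hspa1b* at 69.0 and 250 CPM (1.86) and *Hspb1* at 77.9 and 339 CPM (2.12). Stress during the isolation of the cells and the injections cannot be told apart in these libraries.

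The hypoxia list had 5 lower genes and 1 higher of 19, beside 5.05% and 3.94% of all genes, with a median of -0.69. The glycolytic genes *Pgk1* and *Eno1* were at 198 and 209 CPM in the untreated and 83.2 and 103 CPM in the calcitriol cells, and *Egln1*, which encodes an oxygen sensor, was at 63.5 and 25.6 CPM (-1.31). *Bnip3*, a mitophagy gene, was higher at 30.1 and 64.8 CPM (1.11). The median of this list was -0.87 in the *Epyc* set, -0.37 in the remaining barcodes, -0.55 in the *Prg4* set and -0.26 in the *Col10a1* set.

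Of 18 compared matrix protease genes 3 were higher and 1 lower, with *Adamts5*, the aggrecanase gene, at 30.1 CPM without and 138 CPM after calcitriol (interval 1.63 to 2.82). *Timp4*, a protease inhibitor gene, was at 7.79 and 48.8 CPM (2.65), *Ctsl* (cathepsin L) at 242 and 658 CPM (1.45) and *Mmp14*, a membrane-bound collagenase gene, at 72.4 and 25.2 CPM (-1.52). In the hypertrophic list 4 of 14 genes were higher and none lower, among them *Ibsp* at 2502 and 9239 CPM (1.88, 1.82 to 1.95) and *Mef2c*, a transcription factor gene of hypertrophy, at 16.7 and 50.4 CPM (1.59). *Spp1* and *Col10a1* were the others of the 4. *Col10a1*, limited by the rule, had 0 and 58 UMIs and met the filter only through the calcitriol cells. Both *Spp1* and *Col10a1* turned in direction under other choices of cells. In the cells with 2 or more UMIs of *Notum* or *Sfrp5* the ratios of *Mef2c* and *Spp1* came within 2-fold.

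In the mineralization list 3 genes were higher (*Bglap*, *Spp1* and *Ibsp*) and 2 lower (*Matn3* and *Smpd3*) of 12. Most calcitriol UMIs of *Bglap* lay in 1 cell, and *Spp1* turned in direction in cells without *Bglap* UMIs. In the cells with 2 or more UMIs of *Notum* or *Sfrp5* the ratios of *Spp1* and *Matn3* came within 2-fold. In the articular surface list 1 gene was higher and 2 were lower of 14. There *Cilp*, a cartilage matrix gene, was at 24.5 and 110 CPM (2.17) and *Has1*, a hyaluronan synthase gene, at 96.9 and 48.0 CPM (-1.01). Of 6 compared cell cycle genes none passed 2-fold. Of 80 compared ribosomal protein genes none passed 2-fold, with a median of 0.20.

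The largest ratios in the lower direction were partly held by few cells. *Gal*, which encodes the neuropeptide galanin, had 104 UMIs in the untreated and 4 UMIs in the calcitriol cells (-6.18, -8.08 to -4.78), and 65.4% of the untreated UMIs lay in 1 cell. *Acp5* (tartrate-resistant acid phosphatase) had 67 and 14 UMIs, 97.0% of the untreated ones in 1 cell. *F13a1*, the gene of a transglutaminase that cross-links matrix, had 89 UMIs in 9 untreated cells and 9 UMIs in 8 calcitriol cells (-4.78, -5.96 to -3.79), while its log2 ratio in the other *Col2a1* barcodes was -0.02. *Nrep*, which encodes a small protein of regenerating tissue, was spread over 24 untreated and 19 calcitriol cells at 86.8 and 10.4 CPM (-3.06, -3.76 to -2.40). *R3hdml*, a gene of little-known function, was at 144 and 12.8 CPM (-3.49), with 68.8% of its calcitriol UMIs in 1 cell, and at -3.28 in the other *Col2a1* barcodes. *Angptl2*, an angiopoietin-like gene, was at 85.7 and 12.4 CPM (-2.79, -3.44 to -2.17), and *Tspan2*, a tetraspanin gene, at 62.3 and 10.4 CPM (-2.58, -3.31 to -1.89). The calcitriol ratios of *Acp5*, *Spp1*, *Dkk3*, *Dact1*, *Has1*, *Igfbp5* and *Col10a1*, all given above, turned in direction under at least 1 other choice of cells.

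**Figure D5:**
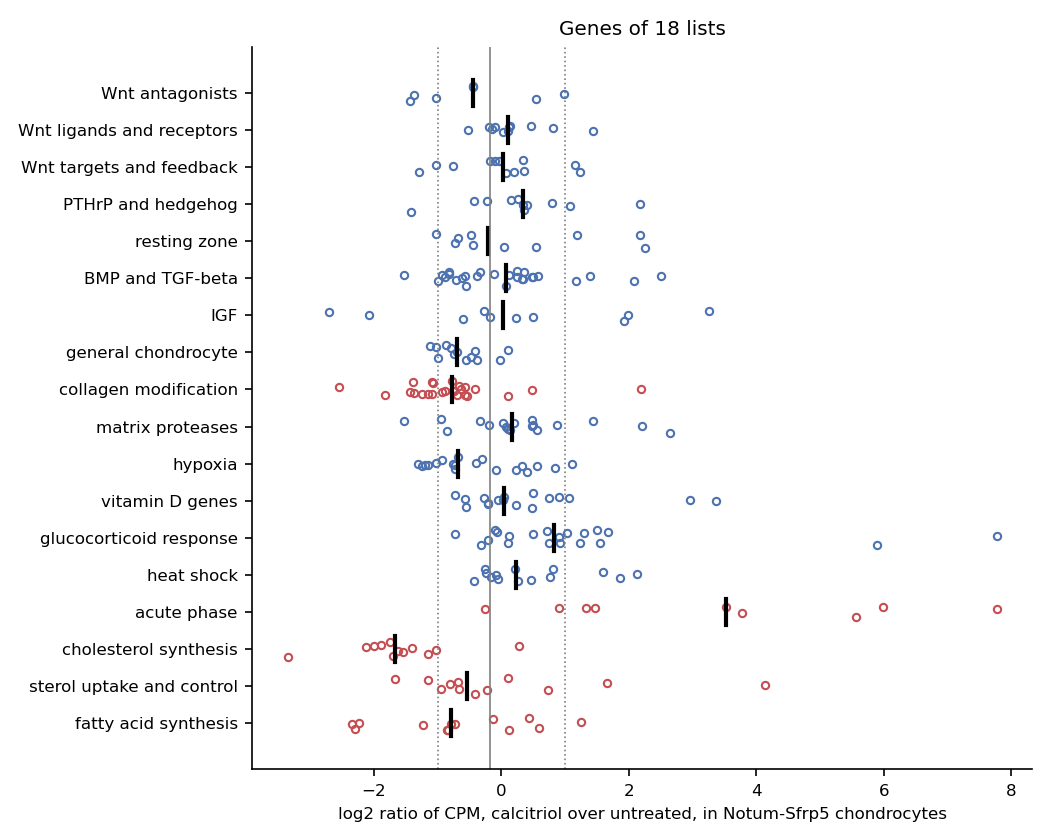
Log2 ratio of CPM, calcitriol over untreated, in *Notum*-*Sfrp5* chondrocytes for the compared genes of 18 lists (1 open circle per gene). Black bars are list medians, the grey line is the median of all 5403 genes (-0.17) and dotted lines mark 2-fold. Blue lists were fixed earlier and red lists were added after values had been seen. Among the 18 lists drawn, the lowest median is that of cholesterol synthesis (-1.67).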

How the data were processed

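Both libraries had been made by the authors with Cell Ranger 4.0.0 on the mouse genome build mm10 (per the labels), and the deposited matrices hold unnormalized UMI counts per gene and barcode. Their totals were 70266983 UMIs in 6076 untreated and 60392557 UMIs in 4562 calcitriol barcodes. *Notum*-*Sfrp5* chondrocytes held 898223 and 2499293 of these UMIs.

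UMIs were summed over the cells of a set and divided by the set's total (CPM). Exact 95% intervals were Poisson for levels, conditional binomial for ratios and Clopper-Pearson for shares. No test between the groups was made, since each group was 1 library. A count of 0 was replaced by 3 counts. The 4 other sets were taken in the order *Col10a1*, *Prg4*, *Epyc*, remaining. Endothelial barcodes had 2 or more UMIs in each of at least 2 of 4 endothelial genes. Doublets were scored against simulated pairs and kept, and 0 untreated and 7 calcitriol members were marked. The code that computes the ratios and their intervals was checked on simulated counts.

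The cells, gene lists and tests were chosen with earlier results of these data known. Genes named are those of the rule, *Lef1*, the 10 highest and 10 lowest ratios of each comparison, and genes of the lists that were abundant or past 2-fold. *Mki67*, *Fgfrl1* and the genes that differ between *Notum* and *Sfrp5* cells were named after their values were seen, except where a list holds them. Alternatives changed the rule, the doublets, the depth (5000 UMIs per cell), the averaging, the totals, the most abundant cell and the filter. Work was done in Python 3.11.15 with numpy 2.4.6, scipy 1.17.1, pandas 2.3.3, scikit-learn 1.9.0 and matplotlib 3.10.9. The promoter sequence came from RefSeq (GRCm38.p6) and gene positions from GENCODE (GRCm38). Sequencing reads and the study's other assays were not analysed here. A few genes are not reported here and were left out of the added lists.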

Additional observations from a re-analysis of the deposited data

Results flagged for a closer look

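*Bglap* and *Bglap2*, neighbouring osteocalcin genes of osteoblasts with similar sequences, differed in direction between *Notum*-*Sfrp5* chondrocytes and the other *Col2a1* barcodes. The log2 ratio of calcitriol over untreated was 3.36 for *Bglap* in *Notum*-*Sfrp5* chondrocytes and -2.47 in the other *Col2a1* barcodes. For *Bglap2* it was 1.05 and -3.21. The difference was not tested, because each group was 1 library. In the calcitriol *Notum*-*Sfrp5* chondrocytes 68.4% of the *Bglap* UMIs and 47.8% of the *Bglap2* UMIs lay in 1 cell each. Of the 917 calcitriol *Bglap* UMIs, 742 lay in the 28 cells with *Calml3* and *Chil1* but neither *Notum* nor *Sfrp5* at 2 UMIs. In the cells with 2 UMIs of *Notum* or *Sfrp5* the *Bglap* ratio was 1.27, and *Bglap* stood at 5.53 CPM without and 4.64 CPM after calcitriol in the cells with both genes (1 and 2 UMIs). The *Bglap2* ratio in *Notum*-*Sfrp5* chondrocytes was itself below 0 under 5 other choices of cells, between -1.09 and -0.13, so that its direction then did not differ from that of the other barcodes.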

How the results depend on the processing

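No paired analysis was possible because each group was 1 library, and no library could be left out. The number of *Notum*-*Sfrp5* chondrocytes and the rarer genes limit these results, since a gene at 10 CPM has about 9 UMIs in the untreated cells. Alternatives without *Chil1*, with 2 UMIs of *Notum*, with 2 UMIs of *Notum* or *Sfrp5* and without *Bglap* were chosen after seeing the data. Of the calcitriol ratios of 154 named genes, 1656 values under other settings lay within the counting interval of the reported value, 476 lay outside it and 22 turned, in 12 genes. The cause was not tested for any value below. The median of the cholesterol synthesis genes ranged from -1.27 (no limit on *Epyc*) to -1.83 (no *Bglap* UMI), with 8 to 11 genes lower. With 2 UMIs of *Notum* or *Sfrp5*, among the genes described in the results the calcitriol ratios of *Notum*, *Dio2*, *Spp1*, *Bglap2*, *Tcf7l2*, *Ccnd1*, *Boc*, *Acan*, *Matn3*, *Mef2c*, *Tsc22d3*, *Jun*, *Zfp36*, *Bnip3*, *Eno1* and *Ebp* came within 2-fold, with *Zfp36* at 0.27, *Jun* at 0.65 and *Mef2c* at 0.89.

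The numbers of genes 2-fold higher and lower with calcitriol (213 and 273) became 87 and 114 with thinned cells, 585 and 564 with 20 UMIs as the filter, and 70 and 78 with 200 UMIs. With the top cell of each gene left out 322 genes were higher. Without *Chil1* 169 were higher and 222 lower, of which 114 and 154 were the same genes. Against the *Epyc* set, 168 genes were higher and 37 lower with 3 of the 4 genes, 183 were higher with *Col2a1* at 1%, 58 were lower with no limit on *Epyc*, and 125 and 24 were higher and lower with thinned cells. Against the remaining barcodes, 109 were higher at 1 UMI, 40 higher and 20 lower with 3 of the 4 genes, 46 and 8 with *Col2a1* at 1%, 216 and 82 with no limit on *Epyc*, 38 and 13 with thinned cells, and 63 lower by the mean of the cells' CPM.

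The untreated share was 14.0% at 1 UMI, 3.29% with 3 of the 4 genes, 11.6% with *Col2a1* at 1%, 16.02% with no limit on *Epyc* and 3.73% thinned. The calcitriol share was 16.3%, 5.33%, 17.9% (no limit on *Epyc*), 6.14% (thinned) and 6.93% (without *Chil1*).

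The calcitriol ratios (log2) that turned were as follows. With 3 of the 4 genes *Acp5* was 0.49, *Col8a1* -0.84, *Has1* 0.68, *Zfp36* -0.37, *Cxcl1* 0.0716 and *Igfbp5* -1.57. Without *Chil1* *Acp5* was 0.18, *Bglap2* -0.21, *Col8a1* -0.41 and *Zfp36* -0.00895. With no limit on *Epyc* *Col10a1* was -0.73, *Bglap2* -1.09 and *Tagln* 0.23. Without *Bglap* UMIs *Spp1* was -0.48, *Bglap2* -0.47 and *Dkk3* 0.16. With 2 UMIs of *Notum* *Bglap2* was -0.13 and *Igfbp5* -1.05, and with 2 UMIs of *Notum* or *Sfrp5* *Bglap2* was -0.26. *Col10a1* was -0.80 at 1 UMI, *Acp5* 0.98 without its top cell and *Dact1* -0.18 with *Col2a1* at 1%.

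Among the ratios over other sets, *Msmp* over the remaining barcodes was 0.54 in the untreated library with 1000 genes per barcode, 0.34 thinned, and 6.71 (1 UMI) and 3.11 (*Col2a1* at 1%) in the calcitriol library. *Mmp13* over the *Epyc* set was 0.80 (1 UMI) and 0.43 (without doublets) in the untreated and 1.45 (without doublets) in the calcitriol library, and 0.34 over the remaining barcodes (*Col2a1* at 1%). *Ly6a* over the remaining barcodes was -1.47 and -0.71 by the mean of the cells' CPM, and *Col8a1* 0.12 at 1 UMI.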
